A study of Arabidopsis thaliana with 12 samples.

Results

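The transcriptome of proatcape1 seedlings was compared with that of wild-type seedlings in medium alone, without added NaCl. Of the 12 arrays of the series, 6 entered this comparison, namely 3 of wild type and 3 of proatcape1, chosen by their sample titles. Wild type was Landsberg erecta (Ler), and proatcape1 is a single T-DNA insertion line in AT4G33730 in the same ecotype. All seedlings were 10 days old, kept on 1/2 MS medium with 16 h of light a day and sampled whole as pools, and the control seedlings were labelled as 0 h in 1/2 MS. The other 6 arrays held the same genotypes after 12 h in 125 mM NaCl, and their genotype difference is set beside that in medium alone. The salt arrays differ from the control arrays in NaCl and in hours, and these cannot be told apart. Because 1 insertion line was used, the insertion cannot be told apart from any other difference between this line and the Ler stock.

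PROAtCAPE1 is the precursor of AtCAPE1, a small secreted peptide cut from the C terminus of a protein of the CAP superfamily (cysteine-rich secretory proteins, antigen 5 and pathogenesis-related 1). Proteins of this superfamily are secreted and are best known in plants from PR1, a marker of salicylic acid defence, and a related peptide of tomato acts as an immune signal. The comparison in medium alone asks which transcripts already differed between the genotypes before salt was given.

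Labelled RNA was hybridized to 1-colour Agilent arrays, 1 array per sample, and the processed signal is the background-corrected brightness of a probe on a linear scale. It was put on the log2 scale and centred on the 75th percentile of its own array, and each gene is given by its brightest probe. Differences are proatcape1 minus wild type on the log2 scale with the standard error (SE) of a limma fit (n = 3 per group). A gene is called higher or lower, or is said to have passed, at a Benjamini-Hochberg adjusted p of at most 0.05 and a difference over 1.5-fold, with p-values adjusted over all 19027 genes tested. In the 6 control arrays the 75th percentile of the signal ran from 1970 to 2381, 73.9% to 78.6% of the probes were well above background and no spot was saturated. All 22 light-harvesting and Rubisco small subunit genes and all 8 root transcription factor genes listed as markers of shoot and root passed the signal filter. Each of the 3 slides held 1 array of every group.

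The targeted gene was at background in the mutant. The PROAtCAPE1 (AT4G33730) signal was 641, 869 and 590 in the 3 wild-type arrays and 5.98, 3.88 and 3.23 in the 3 proatcape1 arrays. The groups lay far apart, and no proatcape1 array was well above background. The transcript was at least 51.3-fold lower in proatcape1 (adjusted p = 1.00e-07). In such a bound, each array of the dimmer genotype enters with the dimmest signal that counted as well above background on that array, or with the probe's own signal where that is larger, and the bound is approximate. Where this probe lies relative to the insertion was not analysed here. In whole seedlings, fewer cells of a type and less RNA per cell cannot be told apart, here and in all results that follow. Under salt, the wild-type signal was 44.5 to 56.6 and the proatcape1 signal 2.97 to 6.36.

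None of the other 6 PROAtCAPE precursor genes tested passed, and their differences ran in both directions. With 2.12% of all genes tested passing, this count says little about so few genes. PROAtCAPE3 (AT4G33720) had a signal of 2522, 8335 and 1655 in wild type and 9646, 8713 and 3534 in proatcape1. The groups overlapped, since the second wild-type array exceeded the third proatcape1 array, and the difference was 1.097 (SE 0.50, adjusted p = 0.258). PROAtCAPE2 differed by 0.47, PROAtCAPE4 by −0.17, PROAtCAPE5 by −0.39, PROAtCAPE6 by −0.27 and PRB1 by 0.05. PROAtCAPE8 and PR1 were not tested, because they did not pass the signal filter. A pair of further genes annotated as CAP or pathogenesis-related proteins, chosen after their values were seen, were higher in proatcape1. Other CAP genes were not counted here, so this pair does not speak for the family. AT4G07820 had a signal of 65.0, 115 and 51.1 in wild type and 597, 247 and 116 in proatcape1, a difference of 1.89 (SE 0.49, adjusted p = 0.0496), with the lowest mutant array just above the highest wild-type array. AT2G19970 differed by 0.73 (SE 0.19, adjusted p = 0.0456). Neither passed with the slide as a block, and each also missed the limits without wild type replicate 1 or 3 or without proatcape1 replicate 1 or 2. With each array left out in turn, the differences were 1.36 to 2.405 for AT4G07820 and 0.57 to 0.93 for AT2G19970.

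Of the 19027 genes, 184 were higher (0.967%) and 220 were lower (1.16%) in proatcape1 in medium alone. The median difference over all genes was 0.004, and the median size of a difference was 0.075 with a median SE of 0.069. All 184 higher genes and 219 of the 220 lower genes had every array of one genotype above every array of the other, against 14.3% of all genes tested with proatcape1 above and 11.6% with it below. The exception was AT3G27630, with a difference of −0.73. The calls were made on these same arrays, so this separation comes largely with the choice of genes and adds no support. Most differences were small. Among the higher genes 65 differed over 2-fold, 15 over 4-fold and 10 over 8-fold, and among the lower genes 107, 16 and 5 did. The counts depended on single arrays. Without wild type replicate 2, 283 genes were higher and 314 lower. Without wild type replicate 3 there were 125 and 120, and without wild type replicate 1, 123 and 146. Without 1 proatcape1 array in turn, 131 to 165 genes were higher and 136 to 172 were lower. With the slide as a block, 165 were higher and 196 lower. Within each of the 3 slides all 404 genes kept their direction. For genes whose genotypes did not overlap, which was all but AT3G27630, this could not come out otherwise.

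The genes that were higher in medium alone and those that were lower stood differently under salt. The salt arrays did not enter the differences that chose these genes, but they entered the fit and thus the error behind the calls. Of the 184 higher genes, 174 (94.6%) had the same sign under salt and 114 (62.0%) were also higher there, against 2.71% of all genes tested that were higher under salt (4.66% passed there in either direction). Of the 220 lower genes, 121 (55.0%) had the same sign under salt and 36 (16.4%) were also lower, against 1.95% of all genes. Another 14 of the 220 were higher under salt. Groups that did not overlap were more frequent under salt than in medium alone, with proatcape1 above in 22.4% and below in 26.4% of all genes tested. The median difference of the higher genes was 0.83 in medium alone and 0.71 under salt, and that of the lower genes was −0.99 and −0.04. The difference between the media passed its own test, the interaction term of the fit, for 18 (9.78%) of the higher and 102 (46.4%) of the lower genes, against 2.56% of all genes tested. The genes were chosen for their values in medium alone, so the interaction shares the control arrays with that choice.

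**Figure D1:**
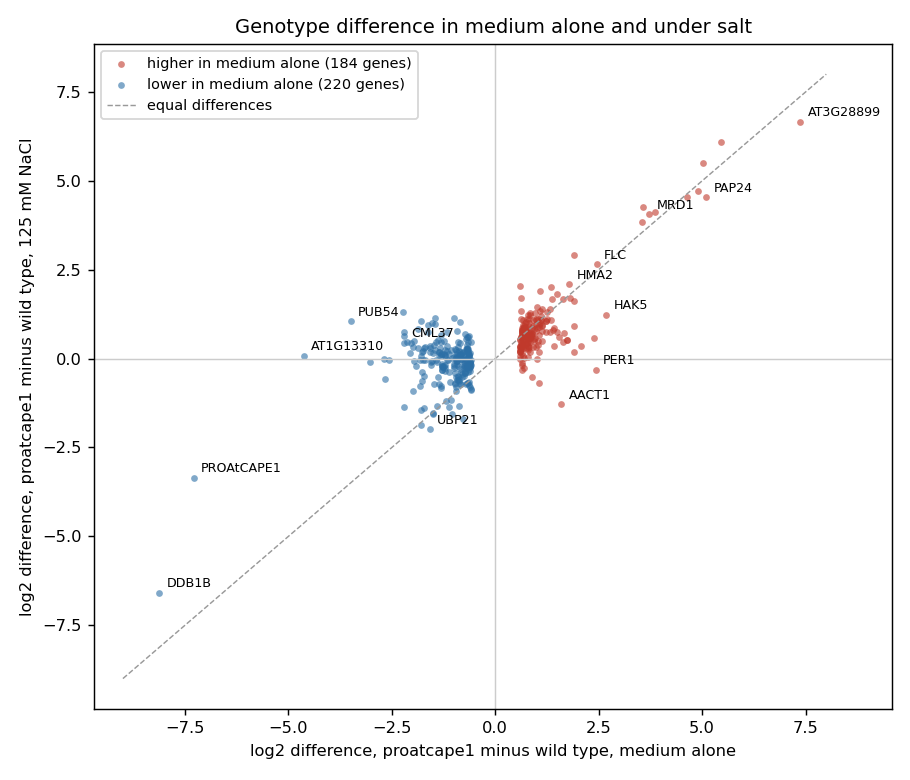
Each point is 1 of the 404 genes that passed in medium alone, with its log2 difference (proatcape1 minus wild type) in medium alone on the x axis and in 125 mM NaCl on the y axis; the dashed line marks equal differences. The 184 higher genes lie mostly along the line (median 0.83 and 0.71), whereas most of the 220 lower genes lie near 0 under salt (median −0.99 and −0.04).

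Several of the largest increases concerned loci that were at background in wild type. AT3G28899, annotated as a hypothetical protein, had a signal of 4.82, 2.80 and 4.33 in wild type and 384, 758 and 794 in proatcape1. The groups did not come near each other, and the transcript was at least 73.2-fold higher (adjusted p = 1.52e-06). PAP24, a purple acid phosphatase, had a signal of 10.9 to 13.6 in wild type and 380 to 459 in proatcape1 and was at least 32.2-fold higher. It was the 1 gene of 11 tested on the purple acid phosphatase list to pass, beside 2.12% of all genes tested. Of purple acid phosphatase genes outside the list, chosen after their values were seen, PAP28 was lower (−0.95) and PAP16 higher (0.59) in medium alone. AT4G08190, annotated as a P-loop nucleoside triphosphate hydrolase, was at least 30.0-fold higher, AT4G03156, a small GTPase-related protein, at least 23.3-fold, and AT1G40087, annotated as a plant transposase, at least 14.3-fold. All of these were at background on every wild-type array in medium alone, and all were higher under salt too. With wild-type signals far below 100 in both media, they passed the signal filter only through the proatcape1 arrays, where they were bright. Loci without a gene symbol are named here after their values were seen.

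AT4G16215, also annotated as a hypothetical protein, was well above background in both genotypes. Its signal was 9995, 4768 and 6848 in wild type and 211400, 199300 and 183300 in proatcape1. Every mutant array lay far above every wild-type array, and the difference was 4.91 (SE 0.22, adjusted p = 5.19e-07). Under salt it was 4.72. MRD1, named for its lower level in a methionine over-accumulating mutant, had a signal of 297, 167 and 254 in wild type and 3113, 2862 and 2800 in proatcape1. The difference was 3.72 (SE 0.18, adjusted p = 1.04e-06), and the salt arrays repeated this separation, with 177 to 182 in wild type and 2441 to 2793 in proatcape1. AT3G56210, an ARM repeat protein, differed by 3.58 and AT3G43833, a hypothetical protein, by 3.54, with 4.28 and 3.85 under salt. AT1G36920, also a hypothetical protein, differed by 3.85, with a wild-type signal of 5.57 to 41.6 that was above background on 1 of 3 arrays. Of the 15 genes that were over 4-fold higher, 12 were also higher under salt.

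DDB1B and AT1G13310 were also at background in the mutant, so that their decreases are known only by a bound. DDB1B, a subunit of CUL4-based ubiquitin ligases that also function in DNA repair, had a signal of 2964, 2690 and 2584 in wild type and 6.92, 12.5 and 9.63 in proatcape1. It was at background on all 3 mutant arrays and at least 177-fold lower. The other 8 genes on the list of CUL4-DDB1 ubiquitin ligases and photomorphogenesis repressors did not pass. Such a count is near what the 2.12% of all genes tested that passed gives. AT1G13310, which carries a BRO1-like domain of endosomal targeting, had a signal of 141, 113 and 130 in wild type and 5.81, 6.47 and 3.18 in proatcape1, at least 9.50-fold lower. Under salt its groups overlapped, at 85.2 to 156 in wild type and 94.9 to 162 in proatcape1 (difference 0.08, adjusted p of the interaction = 5.37e-04). The mutant thus had this transcript at wild-type level in one medium and at background in the other. Of the 16 genes that were over 4-fold lower, 3 were also lower under salt.

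**Figure D2:**
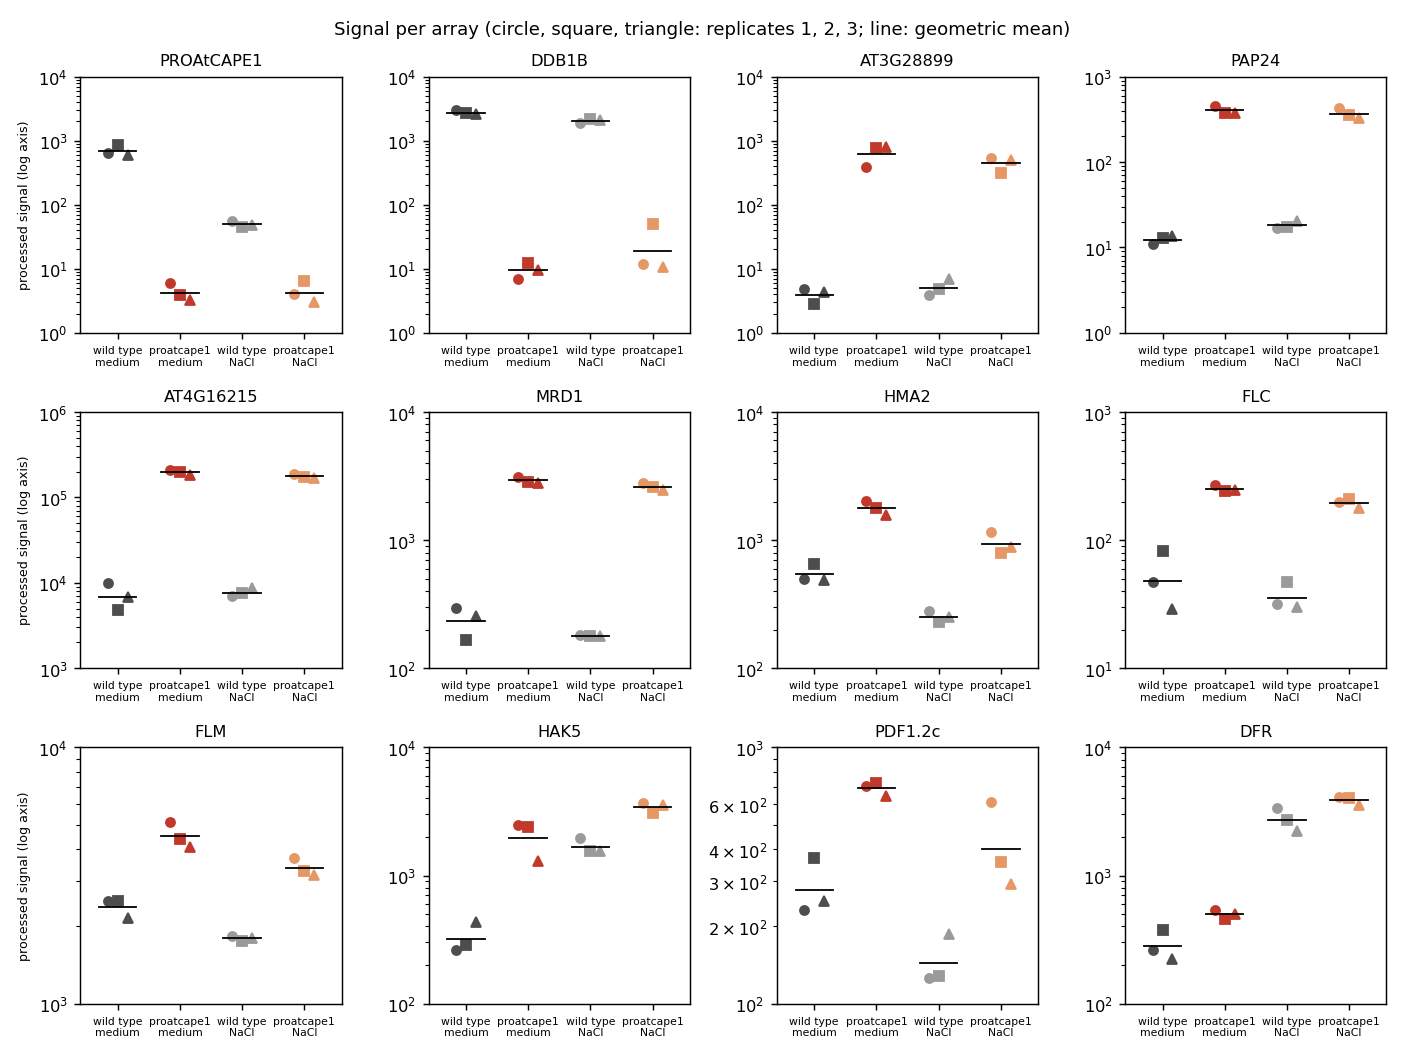
Processed signal on a log axis for 12 genes, with 1 point per array (circle, square and triangle for replicates 1, 2 and 3) and a line at the geometric mean of each of the 4 groups. The genotypes lie apart in both media for AT3G28899, PAP24, AT4G16215, MRD1, HMA2, FLC and FLM, and the proatcape1 signals of PROAtCAPE1 are 3.23 to 5.98 in medium alone.

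The genes that passed were spread over all 5 chromosomes, with 1.98%, 1.71%, 1.84%, 2.77% and 2.37% of the genes tested on chromosomes 1 to 5 (2.12% of all genes). Around the targeted locus, the counts were close to what that share gives for so few genes. Of the 20 measured genes nearest to AT4G33730 in gene order, 10 on each side, 0 passed by the limma fit, and of the nearest 50, 0 passed. Of the nearest 100, 1 was lower, and of the nearest 200, 2 were higher and 1 was lower. The measured gene next to AT4G33730, PROAtCAPE3, differed by 1.097 in medium alone and 1.18 under salt without passing. Around the 30 largest differences without regard to symbol, 10 of the 120 measured genes within 2 places passed (8.33%). The neighbour of DDB1B, the mitochondrial ferredoxin gene MFDX2, was lower by 1.12 in medium alone and 1.36 under salt on the log2 scale, with a signal of 2018 to 2268 in wild type and 821 to 1076 in proatcape1. The neighbour of MRD1, HEI10, a ubiquitin ligase-like protein of meiotic crossover formation, was higher by 0.66 and 0.67. The neighbour of ZAT7, AT3G46080, another C2H2 zinc finger gene, was lower by 1.99 in medium alone and differed by 0.32 under salt, where it did not pass.

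Genes that passed in the same direction also formed 7 runs of at least 3, in which 1 gene was followed by the next within 3 measured genes. Such runs were looked for after the results were known and were not tested as runs. The most even one lay on chromosome 5, where all 5 measured genes from AT5G46730 to AT5G46780 were lower by 1.51 to 1.79 on the log2 scale, in medium alone, and all 5 were also lower under salt. They encode a glycine-rich protein (AT5G46730), a ubiquitin-specific protease (UBP21), an ARF GTPase-activating protein (AGD9), the jasmonate-related bHLH factor MYC3 and a VQ motif protein (AT5G46780). MYC3 had a signal of 6953, 7376 and 5996 in wild type and 2532, 2272 and 2002 in proatcape1, a difference of −1.51 (SE 0.06, adjusted p = 2.96e-07). The 3 mutant arrays were near each other and far below the wild-type arrays, as they were for the other 4 genes. The glycine-rich protein gene fell less far under salt (−1.77 and −0.64, adjusted p of the interaction = 1.24e-04). The genes PYL1 and BOU that follow did not pass, and NIG1, a bHLH gene induced by NaCl, was higher, with a signal of 27.2, 49.6 and 39.5 in wild type and 102, 86.9 and 127 in proatcape1.

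A second run on chromosome 5, from AT5G37940 to AT5G38030, held 8 higher genes of 9 measured, with differences of 0.63 to 0.91, and 6 of the 8 were also higher under salt. By annotation it holds methyltransferases (AT5G37970 and AT5G38020), a zinc-binding dehydrogenase (AT5G37980), the glycosyltransferase UGT76E9 (AT5G38010) and a MATE efflux protein (AT5G38030). The differences of all 8 higher genes were largest within slide 3. Probes of related genes in this run may share transcripts, so that the 8 calls may not be independent. AT5G38020 had a signal of 1588, 1710 and 1280 in wild type and 2730, 2497 and 2963 in proatcape1, so that the groups did not overlap. On chromosome 1, 4 of 6 measured genes from AT1G12000 to BAG5 were higher by 0.98 to 1.12, and 3 of these were also higher under salt. AT1G12000, a pyrophosphate-dependent phosphofructokinase subunit, had a signal of 6773, 6945 and 6375 in wild type and 15600, 13050 and 13140 in proatcape1. The 3 measured genes at either end of both runs did not pass. In these 2 runs AT5G37940, AT5G37970, AT5G37990, AT5G38000, AT5G38010 and AT1G12010 missed the limits without at least 1 array, most often wild type replicate 1 or 3 or proatcape1 replicate 3, with differences of 0.58 to 1.04 over the omissions on chromosome 5 and 0.84 to 1.27 for AT1G12010. AT5G37970 also did not pass with the slide as a block.

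The remaining 4 runs were lower in medium alone, and 3 of their 14 passed genes were also lower under salt. The 4 UDP-glycosyltransferase genes from UGT73C1 to DOGT1 (UGT73C5) on chromosome 2 were lower by 1.27 to 1.36 in medium alone, and none passed under salt, where their differences were −0.72 to 0.47. DOGT1, which glucosylates the toxin deoxynivalenol and brassinosteroids, had a signal of 9148, 5738 and 10910 in wild type and 4410, 3202 and 2535 in proatcape1. The groups did not overlap, but the call was lost without wild type replicate 1 or proatcape1 replicate 3 (−1.57 to −1.01). On chromosome 3, 4 of 5 genes from AT3G21900 to AT3G22060, annotated as cysteine-rich repeat secretory or receptor-like kinase-related proteins, were lower by 0.89 to 0.96 and differed by −0.51 to −0.61 under salt, and on chromosome 4 EARLI1, AT4G12490 and AT4G12500, which encode lipid-transfer-like proteins, were lower by 1.32, 1.79 and 1.22, with −1.86 for AT4G12490 under salt. On chromosome 5, the dehydrogenase genes AT5G16960, AT5G16980 and AT5G17000 differed by −1.99, −1.31 and −0.65 in medium alone and by −0.91, −0.83 and −0.37 under salt. The difference between the media passed for 1 of these 14 genes, UGT73C6. Within each of these runs the genes are close in sequence, so that their probes may share transcripts and their values are not independent. UGT73C1, UGT73C6, AT4G12490, AT4G12500 and the 3 dehydrogenase genes did not pass with the slide as a block, and every gene of these 4 runs except AT2G36780 and AT3G21930 missed the limits without at least 1 array, among them wild type replicate 1 for each. Over the omissions the differences of these genes were −1.69 to −0.96 for the UGT73C genes and −1.13 to −0.79 for the chromosome 3 genes. They were −2.16 to −0.83 for the lipid-transfer-like genes and −2.52 to −0.54 for the dehydrogenase genes.

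**Figure D3:**
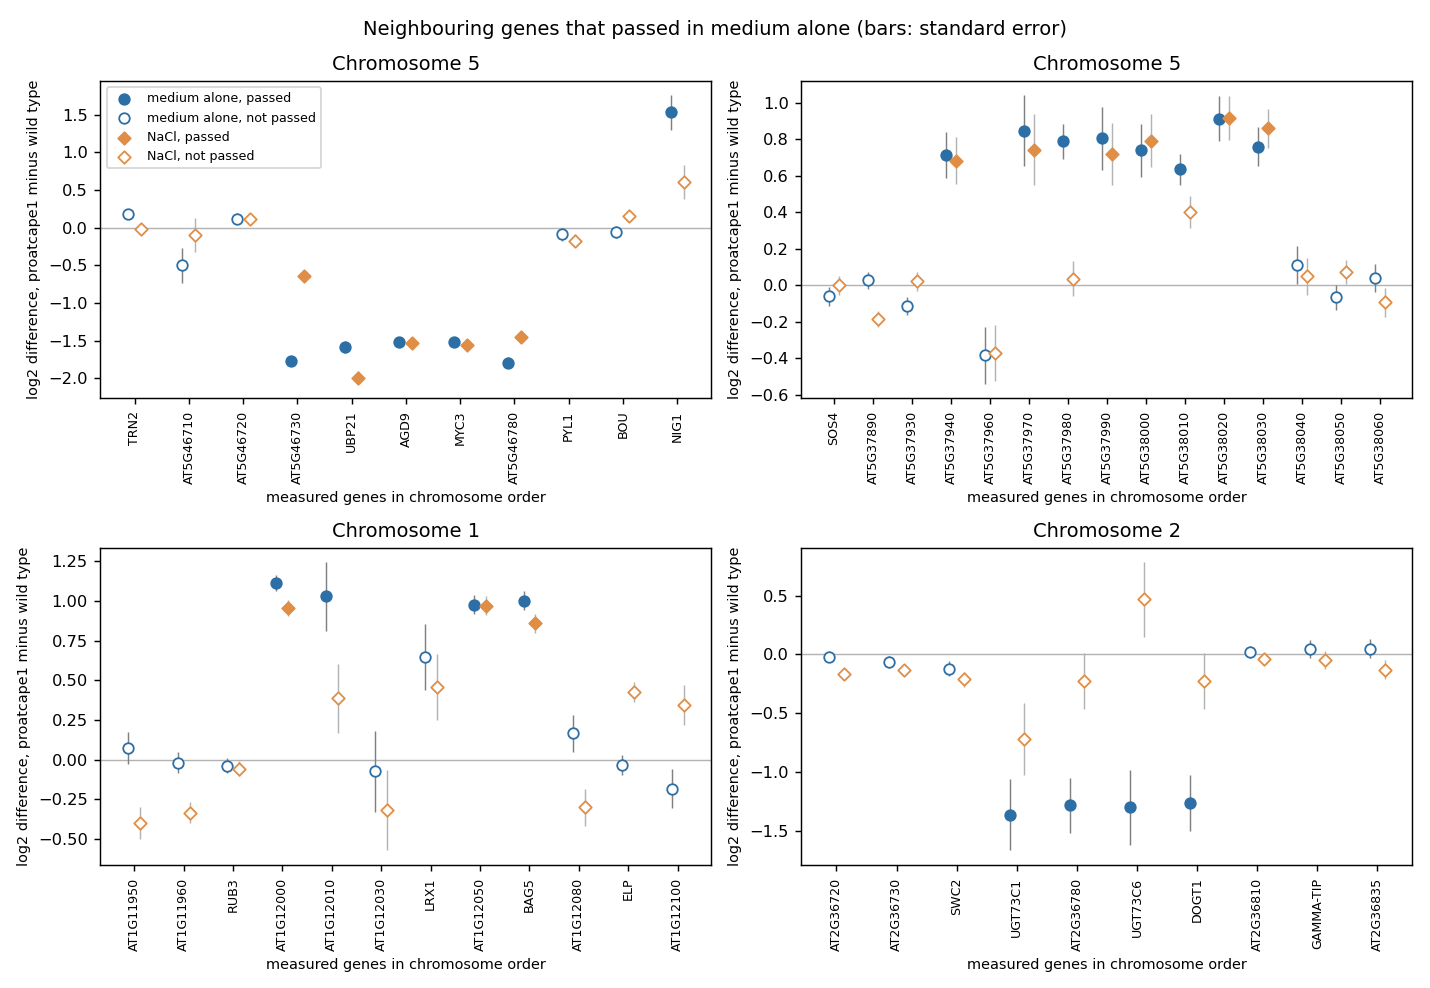
Log2 difference (proatcape1 minus wild type) with its SE for measured genes in chromosome order, in medium alone (circles) and in NaCl (diamonds), filled where the gene passed; 4 of the 7 runs are drawn, and distances along the x axis are not to scale. The 5 genes from AT5G46730 to AT5G46780 lie between −1.79 and −1.51 in medium alone, whereas the UGT73C genes on chromosome 2 passed in medium alone and not under salt.

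Among the lower genes were a number that are known to be induced rapidly by wounding, touch, pathogens or calcium signals. In the lists, 2 of 9 touch and calmodulin-like genes were lower, 2 of 8 C2H2 zinc finger genes of the ZAT and AZF group, 3 of 12 stress-responsive WRKY factors, 1 of 14 rapidly induced ERF and CBF factors and 1 of 13 salicylic acid defence genes, beside 1.16% of all genes tested. None of these lists held a higher gene. This is close to what the 0.967% of higher genes among all genes tested gives for lists of this size. The isochorismate synthase gene ICS2, outside these lists, was higher by 1.67. The median differences of the lists were −0.28, −0.44, −0.36, −0.38 and −0.21, beside 0.004 over all genes. Under salt the medians of the same lists were 0.23, 0.15, 0.09, 0.27 and 0.04. All 12 WRKY genes and all 8 zinc finger genes had a negative difference in medium alone, passed or not. The medians depended on the slide. Within slides 1, 2 and 3 they were −0.54, −0.09 and −0.49 for the WRKY genes, −0.52, −0.07 and −0.15 for the ERF genes, −0.60, −0.27 and −0.65 for the zinc finger genes, −0.70, −0.30 and −0.40 for the touch genes and −0.09, −0.22 and −0.33 for the salicylic acid genes. All but the last list were nearest to 0 within slide 2.

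CML37, a calmodulin-like calcium sensor, had a signal of 885, 554 and 1000 in wild type and 164, 166 and 158 in proatcape1. The mutant arrays were nearly equal and lay below every wild-type array (difference −2.22, SE 0.28, adjusted p = 0.00175). AT3G01830, annotated as the calmodulin-like protein CML40, had a signal of 702, 480 and 638 in wild type and 52.3, 107 and 63.0 in proatcape1. This was one of the largest decreases, with −3.02 (SE 0.30, adjusted p = 3.60e-04), and under salt the difference was −0.11, with 1610 to 2700 in wild type and 1308 to 2342 in proatcape1. CML38 was lower by 1.22 on the log2 scale. A pair of genes annotated as calcium-transporting ATPases were also lower, AT3G22910 (ACA13) by 1.64 and AT3G63380 (ACA12) by 0.99. AT3G22910 had a signal of 407, 298 and 550 in wild type and 145, 126 and 107 in proatcape1, but under salt it was higher in the mutant by 0.74, with 1514 to 2504 in wild type and 2485 to 3062 in proatcape1, and the difference between the media passed (adjusted p = 0.00923). AT3G63380 did not pass with the slide as a block or without wild type replicate 3, proatcape1 replicate 1 or proatcape1 replicate 3, with differences of −1.17 to −0.68 over all omissions.

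Among transcription factors, ZAT7 had a signal of 1015, 838 and 997 in wild type and 221, 212 and 187 in proatcape1. ZAT7 is a repressor of the C2H2 zinc finger family whose overexpression raises salt tolerance, and its groups lay about as far apart as those of CML37 (−2.13, SE 0.23, adjusted p = 5.25e-04). ZAT10 was lower by 1.01, a call lost on leaving out any array other than wild type replicate 2 (−1.29 to −0.80 over the omissions). ZAT12 differed by −0.89 (SE 0.23) and missed the limit with an adjusted p of 0.0511. WRKY46 had a signal of 485, 348 and 634 in wild type and 181, 172 and 177 in proatcape1, a difference of −1.36 (SE 0.24, adjusted p = 0.0106), and passed without each array in turn. WRKY40 was lower by 1.29 and WRKY18 by 0.68. Both calls were lost without wild type replicate 1 or 3 or proatcape1 replicate 2 or 3, that of WRKY40 also without proatcape1 replicate 1, and that of WRKY18 also when the probes of a locus were averaged. Over the omissions WRKY40 ran from −1.54 to −0.96 and WRKY18 from −0.78 to −0.57. ERF13 was lower by 1.22, but not with the slide as a block or on leaving out any array other than proatcape1 replicate 3 (−1.59 to −1.04), and WRKY30 differed by −1.33 (SE 0.41, adjusted p = 0.0907) without passing.

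Further lower genes encode signalling proteins and receptors of immunity, most of them named because they were among the largest decreases. MPK11, a mitogen-activated protein kinase activated by microbial patterns, had a signal of 213, 160 and 312 in wild type and 58.5, 67.5 and 67.0 in proatcape1. The mutant arrays were all below the lowest wild-type array by more than the spread of the mutant (−1.71, SE 0.25, adjusted p = 0.0036). FRK1, a receptor-like kinase induced by flagellin, had a signal of 1322, 569 and 1047 against 360, 341 and 130, a difference of −1.81 (SE 0.37, adjusted p = 0.0192) that missed the limit without wild type replicate 1 or 3 (−2.20 to −1.40 over the omissions). The lectin receptor kinase gene LECRKA4.1 was lower by 1.56, PUB54, a U-box ubiquitin ligase gene, fell by 3.49, and AIG1, induced by the effector AvrRpt2, fell by 1.87. PUB54 varied widely in wild type, with 163, 412 and 1101, against 23.0, 39.7 and 50.2 in proatcape1. AIG1 missed the limit without wild type replicate 3, proatcape1 replicate 1 or proatcape1 replicate 2 (−2.30 to −1.54). MAPKKK20 differed by −1.72, a call lost on leaving out each of the 6 arrays (−1.84 to −1.61) and with the slide as a block.

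SARD1 and CBP60G, the pair of related factors that drive salicylic acid synthesis, went in opposite directions in the 2 media. SARD1 had a signal of 162, 306 and 265 in wild type and 124, 121 and 98.7 in proatcape1 in medium alone, and 133 to 230 against 339 to 367 under salt. It was thus lower by 0.99 and higher by 1.15, and the interaction passed (adjusted p = 0.0123). CBP60G was lower by 0.93 in medium alone and higher by 0.79 under salt. In medium alone, SARD1 passed only with wild type replicate 2, wild type replicate 3 and each proatcape1 array present, and CBP60G did not pass with the slide as a block or on leaving out any array other than wild type replicate 2. Over the omissions SARD1 ran from −1.28 to −0.84 and CBP60G from −1.22 to −0.69. PBS3, which acts in the same synthesis route, differed by −1.49 (SE 0.43, adjusted p = 0.0738) in medium alone and was higher by 1.94 under salt. PR2, a glucanase and marker of this pathway, differed by 1.18 (SE 0.55, adjusted p = 0.265). ICS2, an isochorismate synthase, was higher by 1.67, with a signal of 862, 978 and 668 in wild type and 2254, 2328 and 2997 in proatcape1.

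Other genes among the largest decreases, or chosen after their values were seen, encode enzymes and membrane proteins. BCS1, an AAA-type ATPase of the mitochondrial outer membrane, had a signal of 2009, 1825 and 2322 in wild type and 516, 621 and 611 in proatcape1. All mutant arrays lay far below the lowest wild-type array, and the difference was −1.75 (SE 0.21, adjusted p = 0.00121). The cytochrome P450 gene CYP81D8 was lower by 1.81, the aldo-keto reductase gene ChlAKR by 1.86, the alcohol dehydrogenase gene ELI3-2 by 2.69 and the LEA protein gene LEA3 by 1.74. ChlAKR missed the limit without wild type replicate 1 or 3 (−2.15 to −1.36). ELI3-2 had a signal of 275, 159 and 478 in wild type and 32.4, 69.8 and 30.3 in proatcape1, whereas under salt the groups overlapped at 1330 to 1955 and 1206 to 1529. FLOT1, a flotillin of plasma membrane domains and endocytosis, was lower by 1.17, and AT5G25260, annotated as flotillin-like protein 2, by 2.03. AT5G25260 had a signal of 559, 604 and 587 in wild type and 141, 154 and 117 in proatcape1, with little spread within either genotype (SE 0.15, adjusted p = 4.46e-05). The copper transport family gene AT5G52760 was lower by 2.21. ACS7, an ethylene synthesis gene, was lower by 0.91 but not without wild type replicate 1 or proatcape1 replicate 3 (−1.002 to −0.749).

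**Figure D4:**
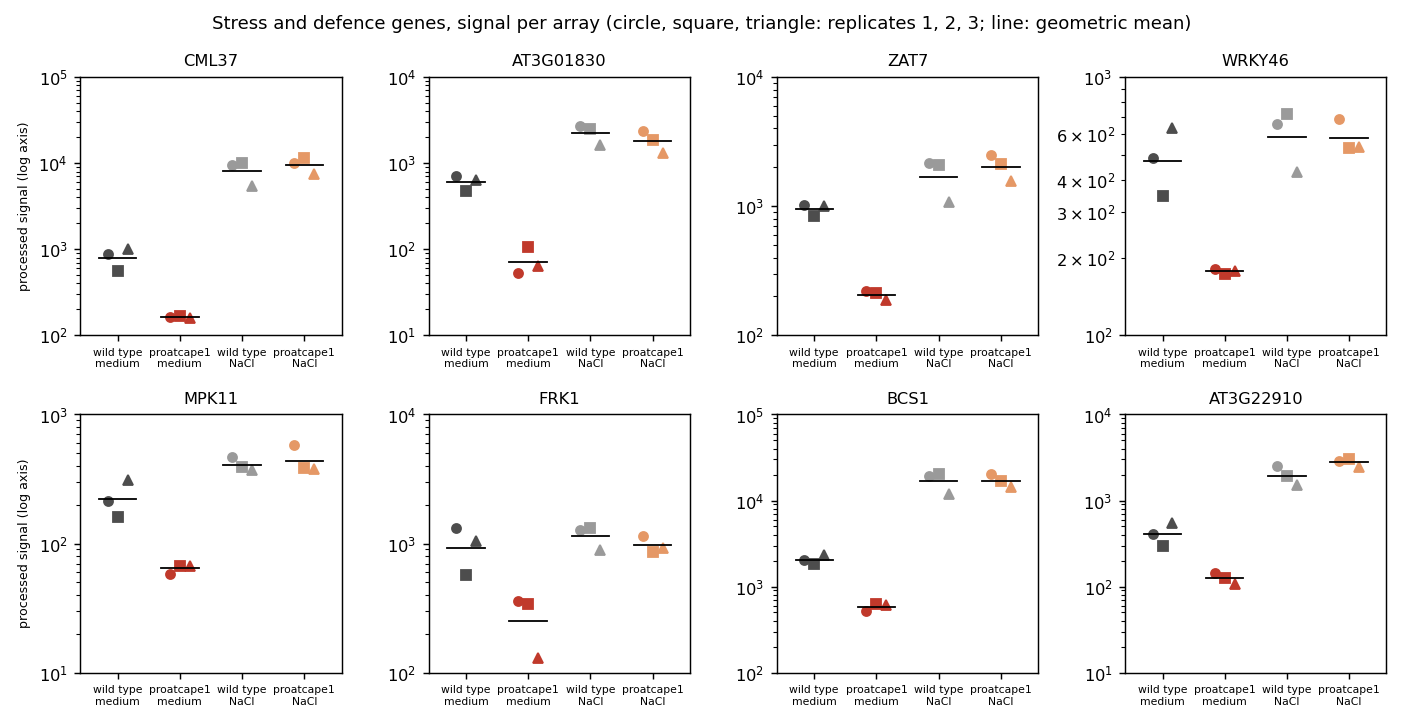
Processed signal on a log axis for 8 stress and defence genes, with 1 point per array (circle, square and triangle for replicates 1, 2 and 3) and a line at the geometric mean of each group. In medium alone the proatcape1 arrays lie below the wild-type arrays for each gene (CML37, 158 to 166 against 554 to 1000). Under salt the unscaled signals of the genotypes overlap for all 8 genes and lie above proatcape1 in medium alone. After each array was centred, AT3G22910 was called higher in proatcape1 under salt (0.74).

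Of 8 clock genes of the morning, the MYB factors CCA1 and LHY were lower in medium alone and 6 did not pass, beside 1.16% lower among all genes tested. All 8 had a negative difference (median −0.47, and 0.10 under salt). None of 11 evening genes passed (median −0.04), which is close to what the 2.12% of all genes tested that passed gives. CCA1 had a signal of 263, 250 and 268 in wild type and 104, 114 and 118 in proatcape1, with no overlap (−1.16, SE 0.11). Under salt, its signal was 8497 to 10590 over both genotypes. CCA1 missed the limits when the probes of the locus were averaged, and LHY (−0.88, SE 0.16, adjusted p = 0.0112) missed them after normexp background correction and on the 6 control arrays alone. PRR9 had a signal of 131, 54.4 and 54.6 in wild type and 21.9, 37.7 and 33.3 in proatcape1, a difference of −1.21 (SE 0.32, adjusted p = 0.0531) that did not pass. COL1, a relative of the flowering gene CONSTANS, was lower by 1.13. The labels give the hour of treatment but not the hour of the day for each array.

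FLC and FLM, MADS-box repressors of flowering, were higher in both media. FLC had a signal of 46.9, 81.9 and 28.9 in wild type and 267, 241 and 246 in proatcape1, and the difference of 2.45 (SE 0.27, adjusted p = 7.38e-04) was 2.66 under salt. FLM had a signal of 2512, 2506 and 2166 in wild type and 5138, 4394 and 4074 in proatcape1. This difference of 0.98 (SE 0.04, adjusted p = 2.76e-07) had an SE below the median of all genes, and it was 1.12 under salt. None of 9 regulators of FLC passed (median −0.01), and the largest of them was FCA with −0.30. Of the other 9 flowering MADS-box and integrator genes, none passed in medium alone, with FT at −0.36 and SOC1 at −0.35. Both counts are close to what the 2.12% of all genes tested that passed gives for lists of this size. E12A11, the FT relative also named MOTHER OF FT AND TFL1, had a signal of 99.0, 125 and 88.8 in wild type and 492, 380 and 275 in proatcape1 and was higher by 1.91 (SE 0.16, adjusted p = 8.40e-05) in medium alone and 0.90 under salt.

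Transport genes for mineral nutrients that passed were few in each list. HAK5, a high-affinity potassium transporter, was higher by 2.68 in medium alone and 1.24 under salt, with a signal of 263, 288 and 435 in wild type and 2465, 2389 and 1292 in proatcape1. The third mutant array was lower than the other mutant arrays but above every wild-type array. SKOR, a potassium channel of xylem loading, was lower by 0.76, a call lost without wild type replicate 3 or any 1 proatcape1 array (−0.98 to −0.61), and the other 13 potassium genes did not pass. HMA2, a pump that loads zinc into the xylem, had a signal of 497, 652 and 484 in wild type and 2012, 1792 and 1564 in proatcape1. Its difference was 1.79 (SE 0.11, adjusted p = 5.39e-06) and was of similar size under salt, with 228 to 278 in wild type and 794 to 1161 in proatcape1. ZIFL2, a zinc-induced facilitator-like transporter, had a signal of 681, 737 and 585 against 259, 250 and 209, and was lower by 1.41 in medium alone and 1.33 under salt. NRAMP3, a vacuolar metal transporter, was lower by 0.74, and SULTR3;1, a sulfate transporter of chloroplasts, was higher by 0.85. ZIFL2, NRAMP3 and SULTR3;1 were chosen after their values were seen. None of 10 iron genes, 11 sulfur genes and 14 phosphate starvation genes passed in medium alone by the limma fit, a count close to what the 2.12% of all genes tested gives for lists of this size. Of the phosphate genes, 13 of 14 had a positive difference (median 0.22, and 0.21, 0.15 and 0.28 within slides 1 to 3), and 6 were higher under salt. The nitrate transporter gene NRT1.8 was lower by 0.72, a call lost on leaving out each of the 6 arrays (−0.84 to −0.52), while NRT2.1 differed by 0.87 (SE 0.23, adjusted p = 0.0545).

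Plant defensin genes of the PDF1 group were mostly higher. Of 9 defensin genes tested, 4 were higher and 1 lower, beside 0.967% higher and 1.16% lower among all genes tested. The median of the 9 was 0.04 (0.32, −0.02 and 0.10 within slides 1 to 3), near that of all genes. None of 9 other jasmonate and ethylene defence genes (median 0.22) and none of 11 JAZ repressor genes (median −0.07) passed. With 2.12% of all genes tested passing, lists of this size hold few or none. PDF1.2c had a signal of 232, 369 and 251 in wild type and 707, 725 and 649 in proatcape1, a difference of 1.38 (SE 0.23, adjusted p = 0.00799) that passed without each array in turn. PDF1.2b differed by 1.49 and PDF1.2a by 1.34. These 3 genes are nearly identical, so their probes may read each other's transcripts. PDF1.2a did not pass after quantile normalization, with the slide as a block or on leaving out any array other than wild type replicate 2 (1.15 to 1.498), and PDF1.2b not without wild type replicate 1, wild type replicate 3 or proatcape1 replicate 2 (1.25 to 1.74). PDF1.3 was higher by 0.61, but not without proatcape1 replicate 3 (0.58 to 0.66). PDF1.4 was lower by 0.77 in medium alone and by 1.71 under salt, with a call in medium alone that was lost with the slide as a block and on leaving out any array other than wild type replicate 2 (−0.88 to −0.65). PDF2.1 differed by −0.07 and PDF2.5 by 0.04.

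Of genes of the abscisic acid and dehydration response, some were higher and most of those listed did not pass. HAI2, a clade A protein phosphatase 2C that restrains abscisic acid signalling, had a signal of 11.3, 8.13 and 9.92 in wild type and 33.5, 21.8 and 24.7 in proatcape1. No wild-type array was well above background, and the transcript was at least 2.69-fold higher (adjusted p = 0.0049). HAI1 was higher by 0.73, but not with the slide as a block or on leaving out any array other than wild type replicate 2 (0.62 to 0.80). The other 6 phosphatases of the list did not pass, so that 2 of 8 were higher, beside 0.967% of all genes tested. GolS2, a galactinol synthase, had a signal of 38.4, 68.1 and 48.6 against 105, 95.9 and 105, and was higher by 1.08, a call lost on leaving out any array other than wild type replicate 2 (0.86 to 1.26). GolS3 was higher by 0.94 and passed without each array in turn. GolS2 was the only one of 8 salt-inducible genes measured by the study with qRT-PCR to pass in medium alone, and 7 of these 8 were higher under salt. The study chose that list on the same genotypes and treatment, so its direction is not independent evidence. None of 15 dehydration and LEA genes passed (median 0.45, with 13 positive), a count near what the 2.12% of all genes tested gives. The median depended on the slide, with 0.22, 0.12 and 0.61 within slides 1 to 3. LEA3, a LEA protein gene outside this list, was lower by 1.74. The largest difference in the list was that of COR15A, with a signal of 750, 1107 and 769 in wild type and 1759, 1641 and 2561 in proatcape1 (1.24, SE 0.32, adjusted p = 0.0512). PER1, a peroxiredoxin of seeds, was higher by 2.43, with a signal of 36.1, 24.7 and 41.7 against 389, 113 and 116, while the seed storage list had 2 of 10 members tested and neither EM1 (1.13) nor EM6 (0.54) passed. COR413IM1 (1.35) and OSM34 (1.14) were also higher, but neither passed without wild type replicate 1 or 3 or proatcape1 replicate 1 or 2, and OSM34 not with the slide as a block. Over the omissions COR413IM1 ran from 1.21 to 1.63 and OSM34 from 0.86 to 1.48.

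Late anthocyanin genes were higher by less than 2-fold each. Of 15 flavonoid and anthocyanin genes 4 were higher and none lower, beside 0.967% higher and 1.16% lower among all genes tested. The median of the list was 0.34 (0.46 under salt), but within slides 1 to 3 it was only 0.18, 0.08 and 0.17. DFR, which makes leucoanthocyanidins, had a signal of 263, 373 and 224 in wild type and 539, 455 and 502 in proatcape1, a difference of 0.89 (SE 0.15, adjusted p = 0.00859). LDOX was higher by 0.78, UF3GT by 0.85 and the glutathione transferase gene TT19 by 0.69. DFR passed without each array in turn. LDOX and TT19 missed the limits without wild type replicate 1 or 3 or proatcape1 replicate 1 or 3, and UF3GT also without proatcape1 replicate 2. Over the omissions they ran from 0.71 to 0.93, 0.60 to 0.83 and 0.70 to 1.06. Outside the list, the modifying enzymes AT5MAT (0.69) and AT4G14090, an anthocyanin 5-O-glucosyltransferase (0.85), were also higher, but not without wild type replicate 1 or 3, and AT5MAT not without proatcape1 replicate 3 (0.58 to 0.80, and 0.76 to 1.04 for AT4G14090). The regulators MYB90 (1.14, SE 0.53, adjusted p = 0.265) and TT8 (0.65, adjusted p = 0.111) did not pass. None of 15 general phenylpropanoid genes passed (median 0.04), a count near what the 2.12% of all genes tested gives.

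Markers of organs and growth were near the value of all genes. The medians of 8 root transcription factor genes, 7 abundant root genes and 22 light-harvesting and Rubisco genes were 0.07, 0.08 and 0.05, and only LHCB4.3 among them passed, at 0.71. No gene passed among 10 root hair genes, 12 mitotic genes (median 0.09), 11 Aux/IAA genes, 9 type-A response regulators, 11 aliphatic glucosinolate genes, 9 camalexin and indole glucosinolate genes or 11 NLR receptor genes. Such counts are close to what the 2.12% of all genes tested gives for lists of this size. All 12 suberin genes had a positive difference (median 0.27), of which only the fatty acyl reductase gene FAR1 (AT5G22500) passed, at 0.60, but not without wild type replicate 1 or proatcape1 replicate 2 (0.53 to 0.66) or when the probes of the locus were averaged. The hypoxia list had SUS4 higher by 0.82 among 10 genes, the heat shock list HSP23.6 lower among 11 (−1.20), and the dark and sugar starvation list DIN10 lower among 10 (−0.62). DIN10 missed the limits on leaving out each of the 6 arrays (−0.71 to −0.48), and HSP23.6 missed them with the slide as a block and without wild type replicate 1, wild type replicate 3, proatcape1 replicate 1 or proatcape1 replicate 2 (−1.43 to −1.06). DIN2 (AT3G60140), a dark-inducible beta-glucosidase, was higher by 1.89, with a signal of 50.6, 228 and 162 in wild type and 411, 387 and 525 in proatcape1, and missed the limits without wild type replicate 3 or any 1 proatcape1 array (1.23 to 2.298).

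**Figure D5:**
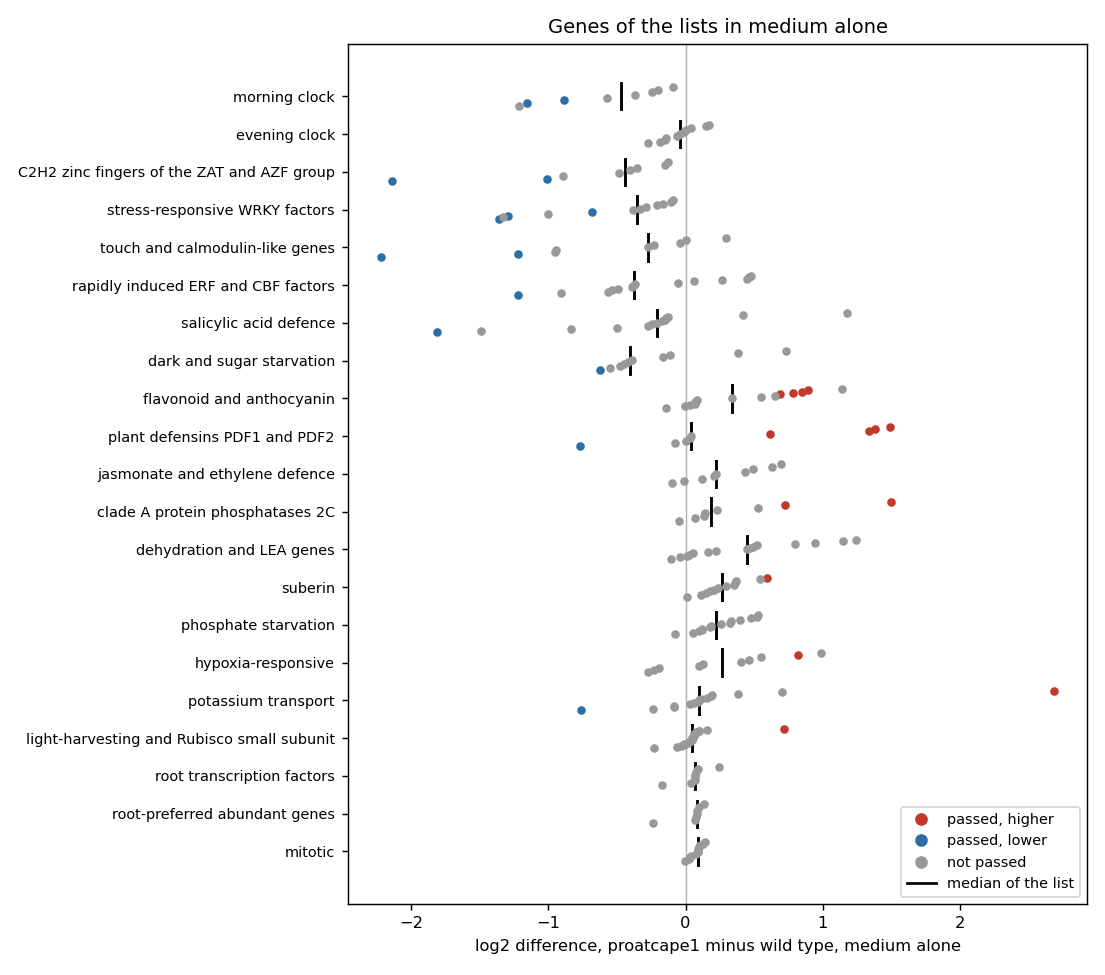
Log2 difference (proatcape1 minus wild type) in medium alone for the genes of 21 lists, with 1 point per gene, coloured by whether it passed, and a tick at the median of the list. The medians of the zinc finger, WRKY and morning clock lists are −0.44, −0.36 and −0.47, and those of the root, mitotic and light-harvesting lists are 0.05 to 0.09.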

How the data were processed

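Cy3-labelled RNA of whole seedlings was measured on Agilent 4x44k Arabidopsis arrays. As deposited, the intensity values are scanner output that the authors obtained with Feature Extraction 10.7.1.1, in which the processed signal was background-corrected within each array and was not scaled between arrays. A second table, also deposited, holds log2 values that the authors scaled in GeneSpring by the 75th percentile of an array and then set, probe by probe, against the median of wild type in medium alone. It was used as an alternative only.

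Control spots and 76 of 43603 probes with outlier flags were removed. Log2 processed signals were centred on the 75th percentile of their array. A probe was kept if its signal exceeded 100 with a coefficient of variation under 50% on all 3 arrays of at least 1 group, and each locus was represented by the brightest of its kept probes, which left 19027 of 25405 loci. A locus that was dim in 1 genotype in both media thus entered through the other genotype. PROAtCAPE1 and DDB1B entered so through wild type, and FLC through proatcape1. A limma (3.58.1, R 4.3.3) linear model over all 12 arrays, with 1 coefficient per group, gave the genotype differences in medium alone, under salt and between these (the interaction), with Benjamini-Hochberg adjustment over all genes. The fit was checked on simulated data. Tables and plots were made with Python 3.11.15, pandas 2.3.3, NumPy 2.4.6 and matplotlib 3.10.9.

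Probes were assigned to loci by matching their transcript identifiers to a RefSeq gene table of the TAIR10.1 assembly. Symbols were updated through the same table. Another 9221 probes without a match to a locus were not used. Sequences were not analysed here. Genes were named by a rule: the PROAtCAPE genes, the 15 largest increases and the 15 largest decreases with a symbol among genes that passed, up to 6 passed members and the 2 largest others of each of 41 gene lists (435 of 474 genes tested), and passed neighbours of AT4G33730. Other genes are said to have been chosen after their values were seen. The genes, lists and tests were chosen with earlier results of these data known. The alternatives comprised background correction, scaling, probe filter and summary, the arrays in the fit, array weights, the slide or replicate number as a block, the limits, the authors' table and leaving out each array. The labels describe the 3 arrays per group as biological repeats, and their number limits the precision. No 2 arrays held identical values, and arrays of a group correlated with r of 0.9939 to 0.9965. Replicate number and slide coincided, and slides 1 and 2 were scanned on another day than slide 3.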

Additional observations from a re-analysis of the deposited data

Results flagged for a closer look

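The genotype difference itself differed between medium alone and salt, by the interaction term of the limma fit, for 18 of the 184 higher and 102 of the 220 lower genes, and for 40 of the named genes. The values that follow are the log2 difference in medium alone minus that under salt. These genes were chosen for their difference in medium alone, so part of this change comes with the choice, and the controls and salt arrays also differ in hours. For 34 of the 40 the value was negative.

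Among calcium, kinase and transcription factor genes, CML37 had −2.66, CML38 −1.30, AT3G01830 −2.91, AT3G22910 −2.38 and MPK11 −2.01. ZAT7 had −2.60, its neighbour AT3G46080 −2.30, WRKY46 −1.54, SARD1 −2.13 and CBP60G −1.72. LECRKA4.1 had −1.39, PUB54 −4.55 and AIG1 −2.70. The clock genes LHY and CCA1 had −0.97 and −1.38.

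Among enzymes, membrane and transport proteins, BCS1 had −1.97, LEA3 −1.71, CYP81D8 −1.87, ChlAKR −2.15, ELI3-2 −2.67 and UGT73C6 −1.77. FLOT1 had −1.52, AT5G25260 −2.46, AT5G52760 −2.96, ACS7 −1.38, SKOR −0.83 and NRT1.8 −1.40. AT5G52930 had −2.85 and AT2G25450 −2.10. AT1G78400 had −2.54 and AT1G30190 −3.53, but both were at background on all 3 proatcape1 arrays in medium alone (at least 1.94-fold and 1.58-fold lower there), so these values rest on background signals. AT1G13310, at background in proatcape1 in medium alone only, had −4.71, the glycine-rich protein gene AT5G46730 had −1.14 and PROAtCAPE1 had −3.94. The values of AT1G13310 and PROAtCAPE1 also rest on such signals. For PROAtCAPE1 the wild-type signal was lower under salt, and the mutant was at background in both media.

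The 6 positive values were those of HAK5 (1.44), E12A11 (1.01), PER1 (2.75), AT5G37980 (0.75), PDF1.4 (0.94) and AACT1 (AT5G61160, 2.88). AACT1, annotated as an acyltransferase, was higher in medium alone and lower under salt, with signals of 165 to 244 and 357 to 1145 in medium alone and 102 to 112 and 32.0 to 48.4 under salt for wild type and proatcape1, respectively. Its call in medium alone was lost without wild type replicate 3 (differences of 1.07 to 1.86 over the omissions).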

How the results depend on the processing

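The genes that were higher or lower in medium alone did not change direction under any alternative that was run, but their numbers depended on the arrays. Where the genotypes did not overlap, leaving out arrays could not change the direction. With each array left out in turn, 123 to 283 genes were higher and 120 to 314 lower, 7 to 25 of the higher and 60 to 161 of the lower genes differed between the media, and the highest counts all came without wild type replicate 2. Of the 137 named genes that passed, 78 passed without each of the 6 arrays, 47 did not pass without wild type replicate 1, 51 without wild type replicate 3, 6 without wild type replicate 2, and 32, 35 and 37 without proatcape1 replicates 1, 2 and 3. With the replicate number, which is also the slide, as a block, 165 genes were higher and 196 lower (157 and 177 of them shared with the fit without it), and 20 of the 137 named genes no longer passed. The main fit did not treat the numbers as pairs. Deviations of same-numbered control arrays from their group means correlated with 0.0866, 0.210 and 0.304. Among the control arrays of the other genotype, each of the 6 arrays correlated best with its own number. The other control pairs of the 2 genotypes ran from −0.232 to 0.0491. Under salt, same-numbered arrays of the 2 genotypes correlated with 0.309, 0.237 and 0.366, and the others ran from −0.221 to −0.0792. Over all groups, control against salt included, the same-numbered pairs ran from −0.203 to 0.366 and the others from −0.232 to 0.172. A fit with genotype pairs within each medium was not run, and the block has 1 slide effect for both media.

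Array weights gave 329 higher and 386 lower genes, of which 176 and 56 passed in the same direction under salt and 30 and 220 differed between the media. Without adjustment of p, 351 genes were lower, 60 of them also under salt, and 43 higher and 209 lower genes differed between the media. At a limit of 2-fold, 65 were higher and 107 lower, 35 and 14 passed in the same direction under salt, and 7 and 56 differed between the media. On the 6 control arrays alone, 137 genes were lower. Normexp correction left 8 higher genes that differed between the media, and testing without the filter on dim probes left 8 higher and 55 lower ones. On the 8 arrays of slides 1 and 2, an alternative added after the data were seen, 67 genes were higher and 64 lower, 48 and 19 passed in the same direction under salt, and 3 and 14 differed between the media, with fewer arrays in the fit. For the other settings the cause was not tested. With the values of the authors, 185 genes were higher and 219 lower, and all named genes kept their call. Quantile normalization gave 183 and 212, median scaling 187 and 215.

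Only genes that did not pass changed sign. On the 8 arrays PDF2.1 became 0.10 and RRTF1 0.075. With each array left out, PDF2.1 ran from −0.19 to 0.034, PRB1 from −0.048 to 0.23 and PDF2.5 from −0.10 to 0.18.

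Signals near background limit the folds of PROAtCAPE1, DDB1B, PAP24 and the other loci given by a bound, and a difference under 1.5-fold was not called whatever its precision. Probes of near-identical genes may share transcripts.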

Other observations

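The genes in these paragraphs were chosen after their values were seen, and families are given by the start of the gene symbol. UDP-glycosyltransferases with a UGT symbol, which attach sugars to hormones and secondary metabolites, had 8 lower and 0 higher genes of 52 tested (median −0.0934, with 32 negative), beside 1.16% lower and 0.967% higher among all genes tested, which apply to the family counts that follow as well. Beside the UGT73C genes, UGT74E2, which glucosylates indole-3-butyric acid, had a signal of 7466, 4181 and 9868 in wild type and 2940, 2558 and 2684 in proatcape1. UGT75B1 had 25906, 16675 and 23352 against 14094, 10127 and 6341. Both groups lay apart, with differences of −1.24 and −1.09 in medium alone, and UGT75B1 was also lower under salt (−0.65). Glycosyltransferase genes listed under other names were not in this count and went in both directions. Among them, DOGT1 (−1.27) and AT2G36780 (−1.28) were lower, and AT5G38010 (0.63) and AT4G14090 (0.85) were higher. AT5G17040, annotated as the glycosyltransferase UGT78D4, was also higher by 1.12, with 304 to 339 in wild type and 613 to 739 in proatcape1.

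The sesquiterpene synthase genes TPS12 and TPS13, which stand close together on chromosome 4, were higher by 1.39 and 1.32 in medium alone and by 0.79 and 0.76 under salt. TPS12 had a signal of 240, 421 and 206 in wild type and 753, 677 and 640 in proatcape1. They were the 2 that passed of 10 genes with a TPS symbol, a symbol that also covers trehalose phosphate synthases. NIT2, a nitrilase, had 361, 724 and 355 against 1302, 1150 and 1042, a difference of 1.42. The 3 germin-like genes AT5G39130, GER2 (AT5G39190) and AT5G38910 were higher by 1.24, 1.22 and 1.11 in medium alone and passed under salt as well. In medium alone GER2 (AT5G39190) missed the limits without wild type replicate 3 (1.02 to 1.46 over the omissions), and AT5G38910 missed them without wild type replicate 1 or 2 or proatcape1 replicate 2 or 3 (0.89 to 1.42). Probes of these germin-like genes may share transcripts.

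Of 86 MYB genes, 3 were higher and 0 lower in medium alone (median 0.102). MYB47 had a signal of 28.4, 67.6 and 44.5 in wild type and 102, 96.2 and 121 in proatcape1, MYB39 had 19.3 to 24.0 against 37.0 to 44.7, and MYB87 had 31.2 to 46.4 against 49.2 to 86.9. Of 56 WRKY genes, 0 were higher and 3 lower by the limma fit, and 41 had a negative difference (median −0.129). CRK13, a cysteine-rich receptor-like kinase, was the 1 gene of 20 with a CRK symbol to pass, with 280, 233 and 265 in wild type and 111, 104 and 87.8 in proatcape1. MLO12, of the family of powdery mildew susceptibility proteins, was lower by 0.92, and JAL22, a jacalin-related lectin, was higher by 1.09 in medium alone and 1.33 under salt.

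2A6, a 2-oxoglutarate-dependent dioxygenase, differed by nearly the same amount in both media. Its signal was 59.9, 62.4 and 50.3 in wild type and 182, 175 and 155 in proatcape1, and the difference was 1.64 (SE 0.07) in medium alone and 1.69 under salt. AT5G04120, a phosphoglycerate mutase-like protein, had 367, 729 and 358 against 1826, 2714 and 2452 in medium alone (2.39, SE 0.39), and under salt 39.7 to 117 against 61.2 to 104, where it did not pass. CYP722A1 had 27.0, 64.0 and 50.8 against 146, 153 and 129. AT2G25450 had 1628, 2350 and 2363 against 374, 510 and 161, one of the largest decreases (−2.67, SE 0.33), and it differed by −0.57 under salt without passing. BGLU28, a beta-glucosidase of the sulfur list, had 103 to 125 against 49.6 to 56.6 in medium alone without passing (−0.998, SE 0.31) and was lower by 2.79 under salt.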
